A study of Mus musculus with 5 samples.

Results

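Ketone body use in skeletal muscle was followed through 3 genes, Oxct1, Bdh1 and Acat1. They were taken by gene name from the 17015 genes of a table of FPKM (fragments per kilobase of transcript, scaled for library size), and all 3 were among the 12148 genes that averaged 0.5 FPKM or more and were tested. The table compares tibialis anterior (TA) muscle, a fast-twitch muscle of the lower leg, between male mice of 2 genotypes at 8 weeks of age, 3 libraries of WT control and 2 that carry the label skmNrip1-/-. The skmNrip1-/- line carries loxP sites around the coding exon of Nrip1 (Nrip1 fl/fl, C57BL/6J) and a Cre recombinase driven by the myogenin promoter (C57BL/6JN), which acts in skeletal muscle fibers and not in heart. Nrip1 encodes RIP140, a coregulator of nuclear receptors. The study's methods describe the WT controls as littermates without Cre. The mice were sedentary. Fewer libraries labelled skmNrip1-/- were analysed here than the mice per group in the legend of the study. Whether the mice had eaten before harvest is not given in the sources used here.

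Ketone bodies are made in liver mitochondria from acetyl-CoA during fasting and prolonged exercise, and muscle, heart and brain burn them. In muscle mitochondria, BDH1 oxidizes β-hydroxybutyrate to acetoacetate, OXCT1 (SCOT) transfers coenzyme A from succinyl-CoA to acetoacetate, and the thiolase ACAT1 splits the acetoacetyl-CoA into acetyl-CoA for the TCA cycle. Liver lacks OXCT1 and so exports what it makes. BDH1 and ACAT1 also work in the direction of synthesis, and ACAT1 takes part in isoleucine breakdown, so the 3 genes do not belong to ketone body use alone.

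In the GENCODE M21 annotation of GRCm38 (mm10), Oxct1 (ENSMUSG00000022186) is at chr15:4026383-4155344 on the plus strand, Bdh1 (ENSMUSG00000046598) at chr16:31422280-31458901 on the plus strand, and Acat1 (ENSMUSG00000032047) at chr9:53580522-53610382 on the minus strand. The upstream sequences of Oxct1 and Bdh1 are shown because RIP140 acts through nuclear receptors, whose binding sites hold the bases GGTCA. They come from the RefSeq promoter table (GRCm38.p6), whose windows run from 250 bases before a gene's start to 50 after it. Its 32851 windows held 1 for Oxct1 and 2 for Bdh1. Only the bases before the earliest annotated start within each window are printed. Bdh1 window 2 lies inside the gene, downstream of its first start. Capitals mark GGTCA on either strand, so that TGACC is GGTCA read on the minus strand.
Oxct1, chr15:4026178-4026382, plus strand: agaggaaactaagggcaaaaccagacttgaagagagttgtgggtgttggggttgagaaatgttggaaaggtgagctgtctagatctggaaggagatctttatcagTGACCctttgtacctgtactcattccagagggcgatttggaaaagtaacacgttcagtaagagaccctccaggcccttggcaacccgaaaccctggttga
Bdh1 window 1, chr16:31422047-31422279, plus strand: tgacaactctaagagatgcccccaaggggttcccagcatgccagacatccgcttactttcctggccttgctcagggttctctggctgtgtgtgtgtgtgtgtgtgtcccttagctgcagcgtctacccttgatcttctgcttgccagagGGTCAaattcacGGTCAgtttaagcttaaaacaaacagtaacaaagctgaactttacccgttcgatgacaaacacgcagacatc
Bdh1 window 2, chr16:31428503-31428747, plus strand: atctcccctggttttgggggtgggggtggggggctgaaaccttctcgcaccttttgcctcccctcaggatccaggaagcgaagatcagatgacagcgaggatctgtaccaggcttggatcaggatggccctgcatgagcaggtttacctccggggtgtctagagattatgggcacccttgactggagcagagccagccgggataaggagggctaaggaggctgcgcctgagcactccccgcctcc
The Oxct1 stretch held 1 GGTCA, the stretch before the upstream start of Bdh1 held 2, and the stretch before its downstream start held 0. Across all windows in the table, 40.5% held at least 1 GGTCA and 10.8% held 2 or more. Longer forms that contain GGTCA were searched on both strands as well. The form AGGTCA was found in 16.3% of all windows. The form AAGGTCA, the core of the estrogen-related receptor site, was found in 4.72%, and its extension TCAAGGTCA in 0.423%. These longer letters were not in the windows of either gene. These are matches of letters and no binding was measured here. The Oxct1 stretch and the second Bdh1 stretch also lie within the annotated spans of genes on the other strand, BC037032 and Gm15743.

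Nrip1 (ENSMUSG00000048490), the gene that was targeted, was higher, not lower, in the libraries labelled skmNrip1-/-, the opposite of what loss of its transcript would give. Its FPKM was 4.64, 7.69 and 6.55 in WT control replicates 1 to 3, and 25.3 and 22.5 in the libraries labelled skmNrip1-/-, a log2 fold change of 1.94 (SE 0.21, adjusted p = 0.0261 by limma). The table gives 1 value per gene, so reads from the deleted exon and from the exons left in place cannot be told apart, and every direction given for skmNrip1-/- rests on the labels. Leaving out each library gave a log2 fold change of 1.74 to 2.09, and the call was lost without WT control replicate 3 (adjusted p = 0.146 by limma), skmNrip1-/- replicate 1 (0.204) or skmNrip1-/- replicate 2 (0.142). It was also lost without the intensity trend (0.0769) and with the replicate block (0.128).

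The libraries were muscle by their markers. The sum of 10 skeletal muscle genes was 119520, 90972 and 97298 FPKM in WT control replicates 1 to 3. It was 91129 and 87866 FPKM in the libraries labelled skmNrip1-/-, so WT control replicate 1 was highest. The sum of the 3 cardiac genes in the table, of 6 listed, was 6.97 to 12.4 FPKM. The hemoglobin genes and Alas2, markers of red blood cells, summed to 511 to 764 FPKM in WT control and to 827 and 996 in the libraries labelled skmNrip1-/-. In both of the latter, 4 of the 5 genes were above every WT control library, as were 15.8% of all genes tested, and 0 were called. Of the slow fiber genes, Myl2 was at 2.03, 1.85 and 9.68 FPKM in WT control and at 42.1 and 33.6 FPKM in skmNrip1-/- (log2 fold change 3.46, adjusted p = 0.127 by limma). Myl3 was at 89.6, 124 and 285 FPKM against 54.1 and 71.3 FPKM (-1.24, adjusted p = 0.359 by limma). Both were picked from 7 slow fiber genes after their values were seen. The other 5 overlapped between groups, with log2 fold changes from -0.20 for Tnni1 to 0.35 for Myh7. The median of the 7 genes was 0.00. The 5 liver markers summed to 123 to 167 FPKM and overlapped between groups for all 5 genes. Transcripts encoded by mtDNA made up 45.4% to 50.7% of the FPKM in WT control and 58.6% and 60.9% in the libraries labelled skmNrip1-/-. The part of these differences in the results below was not tested. In whole muscle, fewer cells of a type and less RNA per cell cannot be told apart. The labels do not say whether replicates are separate mice, so p-values measure only the spread between these libraries. Over all genes tested, 45 were called higher in the libraries labelled skmNrip1-/- and 10 lower, at an adjusted p of 0.05 or less (limma on log2(FPKM + 0.1), Benjamini-Hochberg) and a fold change of at least 1.2. Rescaling to TPM, which counts mtDNA transcripts in the library total, gave 29 higher and 59 lower and shifted the median difference over all genes, in log2 fold change, from 0.00 to -0.29.

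Oxct1, the enzyme that commits acetoacetate to oxidation, was the most abundant of the 3 transcripts, and its FPKM in both libraries labelled skmNrip1-/- exceeded that of every WT control library. Oxct1 stood at 121, 205 and 157 FPKM in WT control replicates 1 to 3 and at 282 and 292 FPKM in skmNrip1-/- replicates 1 and 2. The groups did not overlap, and the WT control libraries spread over a 1.699-fold range while those labelled skmNrip1-/- nearly coincided. The mean Oxct1 level was 161 ± 42.4 FPKM (SD, n = 3) in WT control and 287 ± 6.88 FPKM (SD, n = 2) in skmNrip1-/-. Its log2 fold change was 0.87 (SE 0.21), a 1.82-fold difference with 95% limits of 1.28 and 2.60. The unadjusted p of Oxct1 was 0.00558 and its adjusted p was 0.211 by limma over all genes tested, so Oxct1 was not called.

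Acat1, the mitochondrial acetoacetyl-CoA thiolase, showed the same order of libraries with a smaller difference. Its FPKM was 79.2, 91.9 and 76.9 in WT control and 115 and 110.3 in the libraries labelled skmNrip1-/-. The groups did not overlap, and the WT control libraries stayed within a 1.19-fold range. The mean of Acat1 was 82.7 ± 8.05 FPKM (SD, n = 3) against 112.7 ± 3.33 FPKM (SD, n = 2). The log2 fold change was 0.45 (SE 0.12), or 1.37-fold with limits of 1.13 and 1.66. Acat1 had an unadjusted p of 0.00678 and an adjusted p of 0.231 by limma and was not called.

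Bdh1, the β-hydroxybutyrate dehydrogenase of the inner mitochondrial membrane, had overlapping groups. In WT control its FPKM was 8.61 in replicate 1, 27.6 in replicate 2 and 35.5 in replicate 3, and in the libraries labelled skmNrip1-/- it was 24.7 and 31.5. Both of the latter lay between WT control replicates 1 and 3, and WT control replicate 1 was far below the 4 other libraries. The means were 23.9 ± 13.8 FPKM (SD, n = 3) and 28.1 ± 4.798 FPKM (SD, n = 2). The log2 fold change of Bdh1 was 0.45 (SE 0.56), with limits on the fold of 0.541 and 3.45 (adjusted p = 0.818 by limma). Without WT control replicate 1 it was -0.17 (SE 0.18, adjusted p = 0.767 by limma), so the sign of the Bdh1 difference rested on that library.

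**Figure D1:**
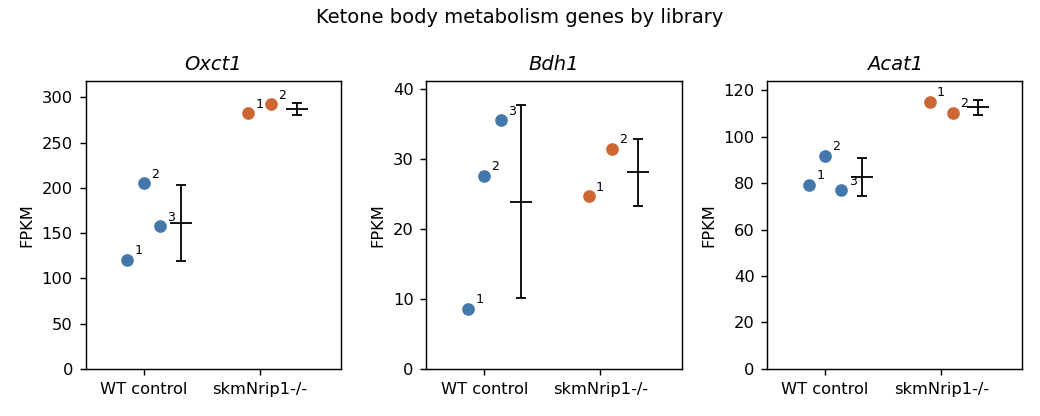
FPKM of Oxct1, Bdh1 and Acat1 in each library, with the replicate number beside each point, and the mean ± SD of the 3 WT control (blue) and 2 skmNrip1-/- (orange) libraries as bars. Both skmNrip1-/- points lie above every WT control point for Oxct1 (282 and 292 against at most 205 FPKM) and Acat1 (115 and 110.3 against at most 91.9 FPKM), while for Bdh1 they lie inside the WT control range of 8.61 to 35.5 FPKM.

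Thus 0 of the 3 genes was called by limma in either direction, where 0.37% of all genes tested were called higher and 0.0823% lower. At an unadjusted p of 0.05 or less, 2 of the 3 (Oxct1 and Acat1) were higher and 0 were lower, beside 6.57% and 5.33% of all genes. That count of 2 was 0 after rescaling to TPM (unadjusted limma p of 0.0513 for Oxct1 and 0.303 for Acat1), 1 without skmNrip1-/- replicate 1 (0.0581 for Acat1) and 3 with the replicate number as a block (0.0474 for Bdh1). For 2 of the 3, WT control libraries were all below both libraries labelled skmNrip1-/-, and for 0 all above, beside 15.8% and 14.4% of all genes. The log2 fold change of Oxct1 was at the 98.5th percentile of all genes tested, and those of Acat1 and Bdh1 were both at the 94.0th. Across 15 other ways of processing, which included leaving out each library, the log2 fold change of Oxct1 ranged from 0.57 to 1.06 and that of Acat1 from 0.15 to 0.53. The lowest value of each came from rescaling to TPM, where the difference above the median of all genes was 0.86 for Oxct1 and 0.44 for Acat1. None of the 3 genes was called under any of them, and the adjusted p reached down to 0.0816 for Oxct1, 0.118 for Acat1 and 0.501 for Bdh1 by limma.

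The order of levels was Oxct1, then Acat1, then Bdh1 in all 5 libraries. FPKM is per kilobase of transcript, so these levels can be set side by side, and no value of one gene overlapped with the next within either group. By rank among the genes tested, Oxct1 was at the 95.2nd to 97.4th percentile of FPKM in WT control and at the 97.9th and 98.1st in the libraries labelled skmNrip1-/-. Acat1 was at the 92.9th to 94.4th percentile in WT control and at the 95.2nd in both libraries labelled skmNrip1-/-. Bdh1 was at the 59.3rd percentile in WT control replicate 1, at the 82.8th and 86.0th in WT control replicates 2 and 3, and at the 80.4th and 84.2nd in skmNrip1-/- replicates 1 and 2. The step that brings β-hydroxybutyrate into the pathway thus had the lowest transcript level of the 3, and the step that commits acetoacetate the highest.

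The balance between the 3 enzymes within a library was compared as the ratio of their FPKM. Oxct1 over Acat1 was 1.53, 2.24 and 2.05 in WT control and 2.46 and 2.65 in the libraries labelled skmNrip1-/-. These ratios did not overlap, and the log2 fold change of Oxct1 exceeded that of Acat1 by 0.42. The exact two-sided permutation test gave p = 0.2, the smallest that 3 libraries against 2 allow (adjusted p = 0.6 over 3 pairs), so this test could not reach 0.05 for any pair. Oxct1 over Bdh1 was 14.03, 7.45 and 4.43 in WT control and 11.4 and 9.28 in skmNrip1-/- (exact permutation p = 0.6, adjusted p = 0.9). Acat1 over Bdh1 was 9.20, 3.33 and 2.17 in WT control and 4.66 and 3.51 in skmNrip1-/- (exact permutation p = 1, adjusted p = 1). Both ratios to Bdh1 overlapped between groups, and in WT control both were highest in replicate 1, where Bdh1 was lowest.

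The 3 genes differed most in their spread among the WT control libraries. The SD of log2(FPKM + 0.1) over these 3 libraries was 1.08 for Bdh1, at the 99.0th percentile of all genes tested. It was 0.38 for Oxct1, at the 87.9th percentile, and 0.14 for Acat1, at the 35.6th. On the linear scale the highest WT control library exceeded the lowest 4.12-fold for Bdh1, 1.699-fold for Oxct1 and 1.19-fold for Acat1. The width of each interval above follows this order.

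**Figure D2:**
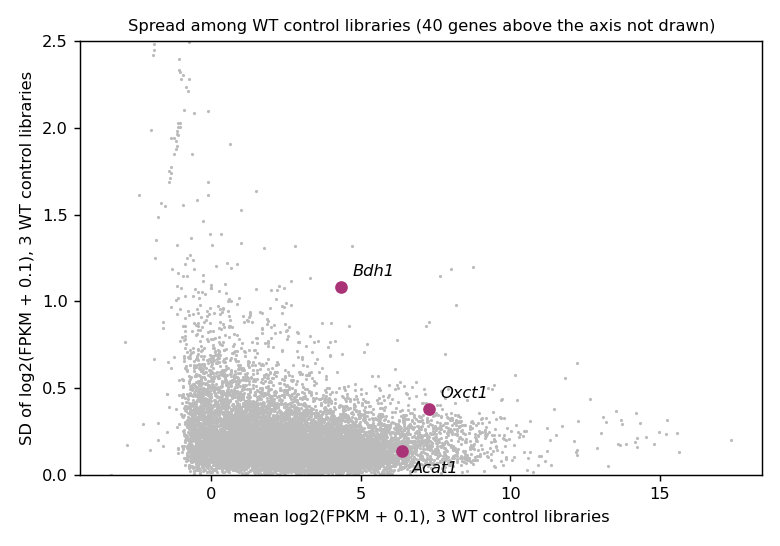
SD of log2(FPKM + 0.1) across the 3 WT control libraries against its mean, for all genes tested (grey; 40 genes above 2.5 are not drawn) and the 3 ketone body genes (magenta). Bdh1 (1.08) stands far above most genes of its level, Oxct1 (0.38) in the upper part of the cloud and Acat1 (0.14) within its bulk.

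Over the 5 libraries Oxct1 and Acat1 ran together, with a Pearson r of 0.944 on the log2 scale, while r was 0.625 between Bdh1 and Oxct1 and 0.336 between Bdh1 and Acat1. These coefficients describe 5 libraries in which the group difference is included. By correlation over the 5 libraries, the genes most like Oxct1 were Cnnm4, Tmx3, Ikzf2, Slc25a34 and Dlat (r of 0.999 or more), those most like Acat1 were Sucla2, Uqcrc2, Rbmx, Mgst1 and Ephx2 (0.998 or more), and those most like Bdh1 were B3galt6, Abtb2, Agmo, Tcaf1 and Agps (from 0.999 down to 0.997). With so few libraries, many genes reach a high r. At a looser threshold of 0.95, these were 396 for Oxct1, 338 for Acat1 and 147 for Bdh1. The nearest genes of Acat1 included Sucla2, which encodes a succinyl-CoA ligase subunit, at 292, 344 and 287 FPKM in WT control and 440.2 and 424 in skmNrip1-/-. Those of Oxct1 included Slc25a34, a mitochondrial carrier gene, at 4.83, 8.69 and 6.49 FPKM in WT control and 12.4 and 13.5 in skmNrip1-/-. All 5 genes near Bdh1 overlapped between groups, and each was lowest in WT control replicate 1, as Abtb2 was at 2.48 FPKM there and at 3.54 to 4.08 FPKM in the other libraries.

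The low library of Bdh1 was also low for PPARδ and PPARα, nuclear receptors that drive fatty acid and ketone body genes. These genes were singled out from the regulators listed after their values were seen. Ppard was at 9.17, 19.2 and 22.5 FPKM in WT control and at 16.9 and 19.2 FPKM in skmNrip1-/-, with an r of 0.994 with Bdh1 over the 5 libraries. Ppara was at 2.998, 8.36 and 7.22 FPKM in WT control and at 7.23 and 7.81 FPKM in skmNrip1-/- (r of 0.955 with Bdh1). In both, as in Bdh1, WT control replicate 1 was lowest and the groups overlapped. Their log2 fold changes were 0.19 for Ppard and 0.40 for Ppara, and neither was called. Myh2, the myosin of oxidative fast fibers, was likewise lowest in WT control replicate 1 (223 FPKM) and highest in replicate 3 (1102 FPKM), with 333 FPKM in WT control replicate 2 and 363 and 406 FPKM in skmNrip1-/- (r of 0.726 with Bdh1). Of the other regulators, Ppargc1a, Ppargc1b, Esrra, Esrrb, Esrrg, Gabpa, Foxo3 and Sirt3 were also lowest in WT control replicate 1. So was Oxct1, and the share of all genes lowest in that library was not counted. For Ppargc1b, Esrra, Esrrb and Sirt3, both libraries labelled skmNrip1-/- were above every WT control library, as for 15.8% of all genes tested. Their lowest value therefore had to fall in some WT control library. The 6 macrophage markers summed to 13.9, 18.7 and 24.7 FPKM in WT control and to 21.4 and 17.8 FPKM in skmNrip1-/-. This sum was lowest in WT control replicate 1 and highest in replicate 3. Most of it was Lyz2, at 10.5, 13.3 and 17.2 FPKM in WT control and 15.8 and 11.9 FPKM in skmNrip1-/-. Cd68 and Csf1r were also lowest and highest in these libraries. Mrc1 was lowest in WT control replicate 1 but highest in skmNrip1-/- replicate 2. Adgre1 and Itgam were highest in skmNrip1-/- replicate 1 and not lowest in WT control replicate 1. The part of fiber makeup or macrophages in the Bdh1 levels was not tested.

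**Figure D3:**
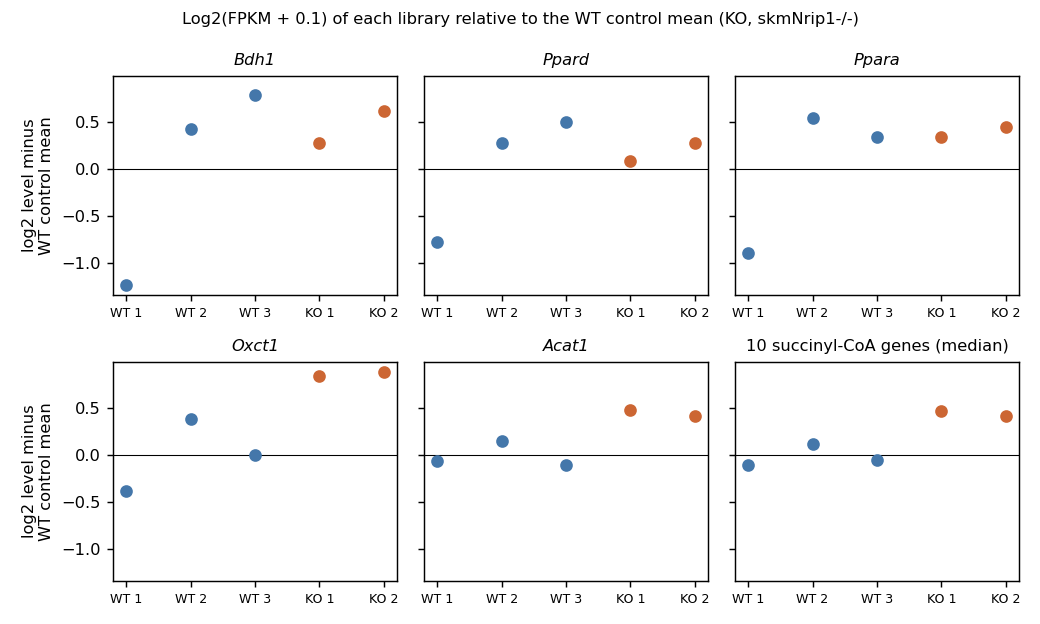
Level of each library minus the WT control mean, in log2(FPKM + 0.1), for Bdh1, Ppard, Ppara, Oxct1, Acat1 and the median of 10 genes of succinyl-CoA metabolism (WT control blue, skmNrip1-/- orange). In the upper panels WT control replicate 1 is lowest and the groups overlap, while in the lower panels both skmNrip1-/- libraries are above every WT control library. WT control replicate 1 is also lowest for Oxct1 and for the median of the 10 genes, but not for Acat1.

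OXCT1 spends succinyl-CoA, and 10 genes were set beside it. They make or use succinyl-CoA in the TCA cycle, or belong to the propionate breakdown that leads to it. Of these, all 10 had a log2 fold change above 0, 8 had an unadjusted p of 0.05 or less, and 8 had no WT control library as high as the lower of those labelled skmNrip1-/-. Over all genes tested, 6.57% were higher at that p and 0.37% were called higher by limma. Both libraries labelled skmNrip1-/- were above every WT control library for 15.8% of all genes. The median log2 fold change of the 10 genes was 0.43, beside 0.00 over all genes tested. Suclg2, the GTP-forming succinyl-CoA ligase subunit, rose from 24.5, 27.0 and 24.1 FPKM in WT control to 43.6 and 43.3 FPKM in skmNrip1-/-, and it was the 1 gene of the list called (log2 fold change 0.78, SE 0.10, adjusted p = 0.0414 by limma). Its call was lost without WT control replicate 1 (adjusted p = 0.0864), WT control replicate 3 (0.209), skmNrip1-/- replicate 1 (0.328) or skmNrip1-/- replicate 2 (0.364), all by limma, with a log2 fold change of 0.75 to 0.79 in each. It was also lost without the intensity trend (adjusted p = 0.110 by limma), with the replicate block (0.235), after rescaling to TPM (0.0868, log2 fold change 0.49) and to TPM without mtDNA genes (0.0689). Mmut, the methylmalonyl-CoA mutase, had the next largest value at 0.57. The smallest were 0.085 for Pcca, a subunit of propionyl-CoA carboxylase that overlapped between groups, and 0.31 for Mcee, the methylmalonyl-CoA epimerase. Rescaling to TPM lowered the median of the list to 0.14, which is above that scale's median of -0.29, with 1 gene at an unadjusted p of 0.05 or less. Oxct1 ran closely with Ogdh of this list (r of 0.99 over 5 libraries), the oxoglutarate dehydrogenase subunit that supplies succinyl-CoA. Ogdh was singled out after its values were seen. This r includes the group difference, and 396 genes reached an r of 0.95 with Oxct1.

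ACAT1 belongs to the thiolases, and of 5 others listed and tested here 1 was called, where 0.37% of all genes tested were called higher. The cytosolic thiolase Acat2 (log2 fold change -0.15, not called) is not among these 5 and is given with the paralogs below. Hadhb, the thiolase subunit of the mitochondrial trifunctional protein for long-chain fatty acids, rose from 173, 203 and 175 FPKM in WT control to 366 and 344 FPKM in skmNrip1-/- (log2 fold change 0.95, SE 0.12, adjusted p = 0.0378 by limma). Its call was lost without WT control replicate 1 (adjusted p = 0.0779 by limma), WT control replicate 3 (0.204), skmNrip1-/- replicate 1 (0.316) or skmNrip1-/- replicate 2 (0.296), with a log2 fold change of 0.908 to 0.998 in each. It was also lost without the intensity trend (adjusted p = 0.0943 by limma), with the replicate block (0.235) and after rescaling to TPM (0.0684, log2 fold change 0.65). Acaa2, the mitochondrial 3-ketoacyl-CoA thiolase, was at 118, 128 and 115 FPKM in WT control and 211 and 197 FPKM in skmNrip1-/-, with a log2 fold change of 0.76 that missed the threshold (adjusted p = 0.0505 by limma) and passed it with a pseudocount of 1 or a minimum mean of 1 FPKM (0.0452 in both). The peroxisomal thiolases overlapped between groups, with log2 fold changes of 0.10 for Scp2, -0.065 for Acaa1a and -0.10 for Acaa1b. The value of 0.45 for Acat1 lay between the mitochondrial and the peroxisomal thiolases. Of the enzymes that hand isoleucine carbon to ACAT1, Echs1 had a log2 fold change of 0.53 (SE 0.11, adjusted p = 0.153 by limma), Acadsb of 0.42 and Hsd17b10 of 0.039. Of these, 0 of 3 were called and 2 of 3 had an unadjusted p of 0.05 or less, beside 6.57% of all genes higher at that p.

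The genes for moving ketone bodies across membranes had values on both sides of 0. Of 8 genes listed, 5 were tested and 0 were called by limma. At an unadjusted p of 0.05 or less, 1 was higher and 1 lower, beside 6.57% and 5.33% of all genes tested. Slc16a7 (MCT2), a high-affinity monocarboxylate transporter, was at 0.211, 0.438 and 0.547 FPKM in WT control and at 2.41 and 1.73 FPKM in skmNrip1-/-. These groups lay far apart at a low level, and its log2 fold change of 2.17 (SE 0.37) had an adjusted p of 0.0953 by limma, and of 0.0452 with a pseudocount of 1. Slc16a3 (MCT4), which exports lactate from glycolytic fibers, was at 330.3, 321 and 358 FPKM in WT control and at 253 and 191 FPKM in skmNrip1-/- (log2 fold change -0.61, SE 0.15, adjusted p = 0.197 by limma). Slc16a1 (MCT1), the main route for ketone bodies into muscle, overlapped between groups at 10.4 to 20.2 FPKM in WT control and 15.4 and 18.6 FPKM in skmNrip1-/-. Bsg, the chaperone of MCT1 and MCT4, had a log2 fold change of -0.28 and Slc16a6, linked to the export of ketone bodies from liver, of -0.46. For Slc16a3, Bsg and Slc16a6 every WT control library was above both skmNrip1-/- libraries, as for 14.4% of all genes tested. Emb, Slc5a8 and Slc5a12 were at or below 0.551 FPKM in every library and were not tested, and the receptor genes Hcar2 and Ffar3 were not analysed here.

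The paralogs of the 3 genes stood at low levels. Oxct2a was at or below 0.0511 FPKM and Acat3 at or below 0.571 FPKM, neither tested, while Oxct2b was not analysed here. Bdh2, at 0.418 to 0.848 FPKM, and the cytosolic thiolase Acat2, at 2.89 to 3.59 FPKM, had log2 fold changes of 0.18 and -0.15 and were not called. In every library the summed FPKM of Oxct1, Bdh1 and Acat1 (209 to 434) far exceeded that of their paralogs (3.83 to 4.54).

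**Figure D4:**
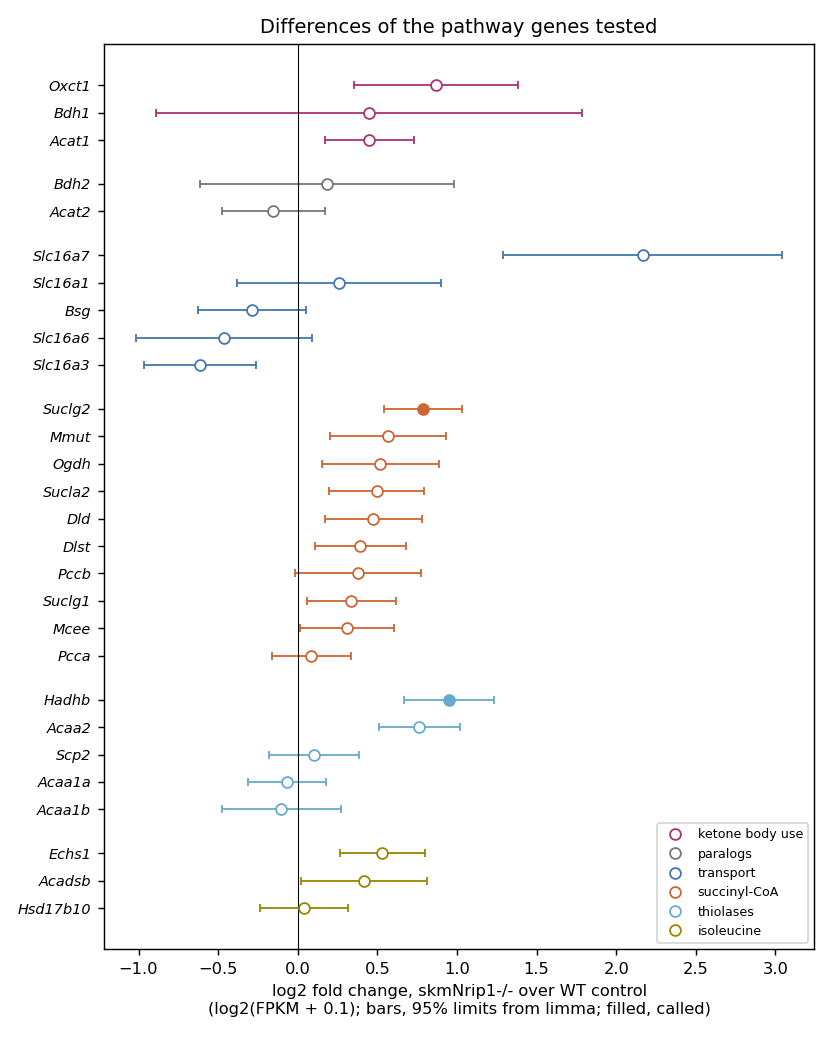
Log2 fold change of skmNrip1-/- over WT control with 95% limits from limma, on log2(FPKM + 0.1), for the tested genes of 6 groups (ketone body use, paralogs, transport, succinyl-CoA, thiolases, isoleucine breakdown); filled points were called. The limits exclude 0 for Oxct1 (0.87) and Acat1 (0.45) but not for Bdh1 (0.45), and Suclg2 and Hadhb are the points called.

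Acetyl-CoA, the product of ACAT1, is burned through citrate synthase or buffered as acetylcarnitine, and 5 of the 7 tested genes that handle it had a log2 fold change above 0. The median was 0.28 and 0 were called by limma. At an unadjusted p of 0.05 or less, 2 were higher and 0 lower, beside 6.57% and 5.33% of all genes tested. The largest values were 0.88 for Slc25a20, the carnitine-acylcarnitine carrier, and 0.34 for Acss1, a mitochondrial acetyl-CoA synthetase. The lowest were -0.35 for the citrate carrier Slc25a1 and -0.28 for Acly, the ATP-citrate lyase of lipid synthesis. Slc25a20 was not called (adjusted p = 0.0793 by limma) except without WT control replicate 2 (0.0413).

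For mitochondrial content, 12 genes of outer membrane channels, import, prohibitins and carriers had a median log2 fold change of 0.21. Of these, 11 were above 0 and 0 were called by limma. In that direction 4 had an unadjusted p of 0.05 or less, beside 6.57% of all genes tested. The extremes of the 12 were Hspd1 (0.40) and Slc25a3 (0.39) at the upper end and Tomm20 (-0.035) and Vdac3 (0.051) at the lower end. The log2 fold change of Oxct1 (0.87) was above that of each of the 12 genes, as was that of Acat1 (0.45), and no test of this difference was made.

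Among 16 regulators of mitochondrial and ketone body genes, the median log2 fold change was 0.22, with 10 above 0 and 6 below, and the median was 0.033 without WT control replicate 1 and -0.073 after rescaling to TPM. Srebf1, a regulator of lipid synthesis, fell from 16.3, 10.9 and 15.7 FPKM in WT control to 4.51 and 5.08 FPKM in skmNrip1-/- and was the 1 gene of the list called (log2 fold change -1.53, SE 0.19, adjusted p = 0.0394 by limma). Its call was lost without WT control replicate 1 (adjusted p = 0.107 by limma), WT control replicate 3 (0.204), skmNrip1-/- replicate 1 (0.2497) or skmNrip1-/- replicate 2 (0.211), and the log2 fold change without each library was -1.72 to -1.43. It was also lost without the intensity trend (adjusted p = 0.0943 by limma), with the replicate block (0.197) and with no minimum on the mean (0.0557). Over all genes tested, 0.0823% were called lower. Of the 16, 3 were higher and 2 lower at an unadjusted limma p of 0.05 or less. The shares over all genes tested were 6.57% and 5.33%. After rescaling to TPM, 0 of the 16 were higher and 2 lower at that p. Rxra, the shared partner of the PPARs, had a log2 fold change of -0.34. The largest values above 0 were 0.63 for Esrrb, an estrogen-related receptor, and 0.60 for Ppargc1b, a PGC-1 coactivator, neither called. Ppargc1a, the coactivator tied to the induction of Oxct1 and Bdh1 by endurance training, overlapped between groups at 5.50, 9.86 and 7.70 FPKM in WT control and 7.55 and 7.05 FPKM in skmNrip1-/-.

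Reads of antisense genes could add to the levels of Oxct1 and Bdh1. BC037032 on the opposite strand shares 467 of the 3701 exon bases of Oxct1, and Gm15743 shares 533 of the 3888 exon bases of Bdh1. The library kit is not stated to mark strand, so reads from a gene and its antisense partner cannot be told apart, and neither partner was analysed here. Of the 31-base words in the longest coding transcript, 12.5% for Oxct1 and 7.07% for Bdh1 also occur in transcripts of other genes, mostly these partners, and 0% for Acat1.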

How the data were processed

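Total RNA of TA muscle was sequenced from libraries made with the NEBNext Ultra RNA kit, which is not stated to mark strand. Per the submitters' processing notes, reads were quantified with Salmon 1.10.2 on mm10 and compared with DESeq2 1.44.0. The deposited table holds 1 FPKM value per gene and library, made by the authors. How FPKM were computed and the annotation release are not given in the sources used here. The deposited FPKM give each library a median ratio of 1.00 to the geometric mean of the genes, so they already carry a scaling. Fragment totals are not in the table, so depth is unknown and counting error could not be given. The authors' columns of log2 fold change and adjusted p-value hold their own comparison and were not used.

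Libraries were grouped by their GEO labels. Differences were fitted with lmFit and trended eBayes of limma 3.58.1 (R 4.3.3), on the log2(FPKM + 0.1) of all 5 libraries without covariates. P-values were adjusted by Benjamini-Hochberg over the 12148 genes averaging 0.5 FPKM or more. Fold changes on this scale understate those of low genes. The thresholds (adjusted p of 0.05, 1.2-fold) are those of the study's methods. The study's DESeq2 needs counts and was not run. The script was tested on simulated data. Ratios between genes were compared by exact permutation (scipy 1.17.1). Percentiles are over the genes tested. Positions, exon overlaps and shared 31-base words used GENCODE M21 (GRCm38).

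The 3 genes, the gene lists and the tests were chosen with earlier results of these data known. The genes named are Nrip1, the 3 genes, all measured genes of the paralog, transport, receptor, thiolase and isoleucine lists, the 2 largest and 2 smallest differences and any call in the other pathway lists, and the 5 genes most correlated with each of the 3. Ogdh, Ppard, Ppara, Ppargc1a, Esrra, Esrrg, Gabpa, Foxo3, Sirt3, Myh2, Myl2 and Myl3 were added after their values were seen. A few further listed genes are left out here. Lists of slow fiber, adipocyte, endothelial, macrophage, Schwann and satellite cell markers were also examined. Their median log2 fold changes were 0.00, 0.02, -0.12, 0.05, -0.20 and -0.22, and no gene of them was called by limma. At an unadjusted p of 0.05 or less, 1 was higher and 2 were lower, beside 6.57% and 5.33% of all genes tested. As alternatives, the pseudocount was set to 1 or 0.01, the minimum mean FPKM to 1 or dropped, the libraries rescaled in 3 ways, and eBayes run robustly or without its trend. Further ones were the replicate number as a block, no fold threshold, an adjusted p of 0.01 and leaving out each library in turn.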

Additional observations from a re-analysis of the deposited data

How the results depend on the processing

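With 2 libraries in one group, calls depended on the setting. Leaving out 1 library gave 6 to 51 genes higher and 2 to 15 lower: 24 and 3 without WT control replicate 1, 51 and 15 without WT control replicate 2, 17 and 2 without WT control replicate 3, 8 and 7 without skmNrip1-/- replicate 1, and 6 and 3 without skmNrip1-/- replicate 2. Higher and lower calls were 22 and 3 without the intensity trend, 29 and 59 after rescaling to TPM, and 14 and 3 at an adjusted p of 0.01. Groups share replicate numbers 1 and 2, and same-numbered libraries had deviations correlated at 0.0647 and 0.0952. With numbers 1 and 2 crossed, the values were -0.0647 and -0.0952. Deviations of 2 libraries from their own mean are mirror images, so these values cannot decide whether libraries were paired. With the replicate block, 18 genes were called higher and 4 lower, and the log2 fold change was 0.87 for Oxct1, 0.85 for Bdh1 (adjusted p = 0.501 by limma) and 0.40 for Acat1. WT control replicate 3 has no partner and adds nothing to the difference fitted with the block.

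Without 1 library at a time, the log2 fold change ranged from 0.68 to 1.06 for Oxct1, from 0.40 to 0.53 for Acat1 and from -0.17 to 0.85 for Bdh1. The difference of Bdh1 minus Acat1 (0.00019) ranged from -0.59 to 0.45 and was -0.024 with a pseudocount of 1. With 1 library labelled skmNrip1-/-, this difference was not put to the permutation test, and the limma fits of single genes take that library to vary like the WT controls.

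Some values changed sign. They were not all near 0, and included 0.29 for Dlat (unadjusted p = 0.0436 by limma), 0.26 for Slc16a1 and 0.22 for Ikzf2 before rescaling. After rescaling to TPM, log2 fold changes were -0.070 for Bdh2, -0.040 for Slc16a1, -0.20 for Scp2, -0.26 for Hsd17b10, -0.21 for Pcca, -0.25 for Vdac3, -0.041 for Ikzf2, -0.0099 for Dlat, -0.16 for B3galt6, -0.13 for Abtb2, -0.19 for Agmo, -0.22 for Tcaf1 and -0.15 for Agps, on a scale whose median over all genes is -0.29. TPM without mtDNA-encoded genes gave 0.010 for Acaa1a and 0.040 for Tomm20, and the replicate block -0.035 for Bdh2 and 0.048 for Tomm20. Without 1 library at a time the ranges were -0.065 to 0.43 for Bdh2, -0.0036 to 0.21 for Scp2, -0.039 to 0.12 for Hsd17b10, -0.15 to 0.078 for Tomm20, -0.0078 to 0.11 for Vdac3, -0.029 to 0.15 for B3galt6, -0.048 to 0.30 for Abtb2, -0.021 to 0.16 for Agmo, -0.043 to 0.13 for Tcaf1 and -0.042 to 0.25 for Agps. Of the other values for named genes, 640 kept their direction and their side of the threshold, 27 lost a call and 5 gained one.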
